A study of Mus musculus with 6 samples.

Results

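The natural killer (NK) cells among the leukocytes of mouse lung were 2026 of 23322 cells. They were chosen by marker counts. A cell had to show a count of at least 2 of the 6 genes Ncr1, Klrb1c, Klre1, Klra8, Klra4 and Eomes, and no count of the T cell genes Cd3e, Cd3d and Cd3g, of Siglech, of Cxcr2 or of Top2a. It had to hold fewer than 2 counts each of the B cell gene Cd79a and the macrophage gene C1qa. Of the cells so chosen, 1073 came from mice given a PD-1 agonist, out of 12216 cells, and 953 came from mice given an isotype control, out of 11106 cells.

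The study profiled live CD45+ lung cells by droplet single-cell RNA sequencing. All mice carried a humanized PD-1, the inhibitory receptor of activated lymphocytes, and were 6 to 8 weeks old, and they had received the PD-1 agonist or the isotype, according to the labels. The title names neutrophilic asthma and a reprogramming of T cells as the subject. There were 3 tables per treatment, labelled as separate mice.

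The tables of a treatment did not hold separate cells. Any pair of them shared 2373 to 2736 cell barcodes, 35.9% to 42.5% of the smaller table, against 3 to 13 barcodes for a pair from different treatments. Where a barcode stood in both tables and was called NK in either, it was called NK in both in 78.0% to 84.2% of cases. No measurement used here ties a cell to a mouse, so each treatment is 1 pool with no replicate check and no test, and an effect of treatment cannot be told apart from a difference between libraries. Values compare these 2 pools. Values by table are printed to show the spread between overlapping subsets of a pool, which are not replicates. How often the tables of the 2 pools lay apart was not computed over all genes. Tables without overlap therefore only describe a gene. The exact 95% intervals hold counting error and nothing else. The tables held 6393 to 6749 records and 21556545 to 29749815 counts, of which 473 to 551 records per table were NK cells. An agonist NK cell held 2352 counts and 1306 genes at the median, against 2724 counts and 1439 genes in an isotype NK cell.

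NK cells are innate lymphocytes that kill infected or transformed cells by releasing granules filled with perforin and granzymes, and that secrete interferon gamma and chemokines. They decide by balancing activating receptors, such as Ncr1 (NKp46) and Klrk1 (NKG2D), against inhibitory receptors for MHC class I, which in mice include most members of the Ly49 family, encoded by the Klra genes. As they mature they lose Cd27 and gain Itgam (CD11b) and Klrg1, and most NK cells of the mouse lung are mature cells of the blood circulation.

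Genes that the rule did not read bore out the label. Gzma, the granzyme A protease, had a level of 11462 CPM in agonist NK cells and 12058 CPM in isotype NK cells (CPM, counts scaled to a common total of 1000000 over the NK cells of a pool), and it was counted in 98.8% and 99.4% of them. The T cells, B cells and neutrophils set beside the NK cells were chosen to hold no count of the 6 marker genes, so they leave out droplets that took up those NK transcripts and their levels of NK genes are biased low. In such T cells Gzma had 144 and 199 CPM, and in such B cells 16.2 and 16.7 CPM. B cells chosen without reading the NK genes, a background added after the data had been seen, were 1123 agonist and 711 isotype cells, of which 44 and 21 held a count of a marker gene, and there Gzma had 365 and 191 CPM. Prf1 (perforin) had 1347 CPM in agonist NK cells and 1453 CPM in isotype NK cells, against 25.2 and 25.8 CPM in T cells. Il2rb, the receptor chain through which NK cells take up interleukin 15 signals, had 2032 and 1931 CPM, and the transcription factor Tbx21 (T-bet) had 127 and 144 CPM. The defining T cell genes Cd8b1 and Cd5 were near 0, at 1.02 CPM each in agonist NK cells and at 0.34 and 1.02 CPM in isotype NK cells. Trac, the constant region of the T cell receptor alpha chain, had 16.7 and 10.2 CPM in NK cells, against 399 and 364 CPM in T cells. Trbc1, a constant region of the beta chain, had 489 CPM in agonist NK cells and 501 CPM in isotype NK cells, against 522 and 573 CPM in T cells, and 45.4% of its 31-base words occur in another gene.

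The rule used measured counts, so its own genes are a description. The markers were counted in unequal shares of the chosen cells. Klre1 was found in 86.0% of agonist and 85.0% of isotype NK cells, Klrb1c (NK1.1) in 78.9% and 79.5%, Eomes in 57.4% and 61.7%, Ncr1 in 55.4% and 67.8%, Klra8 (Ly49H) in 51.3% and 54.0%, and Klra4 (Ly49D) in 45.6% and 48.2%. Just inside the threshold stood 177 agonist and 104 isotype cells with exactly 2 markers. Their Gzma levels were 10809 and 9140 CPM, near those of cells with all 6 markers, at 13139 and 13027 CPM. Just outside stood 152 agonist and 136 isotype cells with 1 marker, where Gzma had 3003 and 1404 CPM. The 1-marker cells carried more myeloid RNA, with Lyz2 at 3148 and 3121 CPM, against 556 and 570 CPM in cells with exactly 2 markers.

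NK cells made up 8.78% of the agonist cells (interval 8.29% to 9.30%) and 8.58% of the isotype cells (8.07% to 9.12%). By table the share was 9.15%, 8.77% and 8.78% in the agonist pool, and 8.60%, 8.15% and 8.70% in the isotype pool. Every agonist table lay above every isotype table, by as little as 8.77% against 8.70%, and the intervals of the pools overlapped over most of their width. T cells, chosen by the Cd3 genes without an NK marker, were 9.45% of agonist cells and 11.8% of isotype cells. Because the rule needs detected markers and the agonist cells were shallower, the rule was also applied to cells thinned to 1000 counts each, a check chosen after the data had been seen. NK cells were then 8.61% (8.10% to 9.14%) of the agonist cells and 8.15% (7.64% to 8.69%) of the isotype cells. With at least 3 markers required and no thinning, the order was the reverse, with the isotype share the higher, as given at the end.

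**Figure D1:**
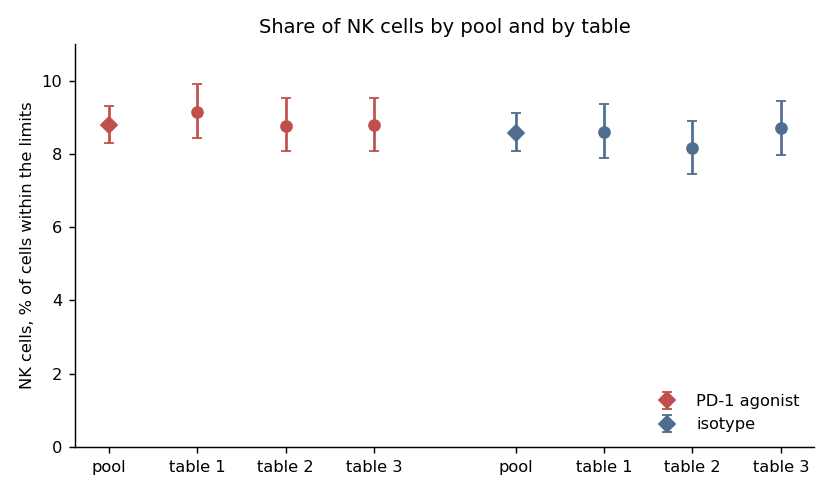
Share of NK cells, in percent of the cells within the limits on genes and counts, for each pool and each of its 3 tables, with exact 95% intervals. The intervals of the agonist pool at 8.78% and the isotype pool at 8.58% overlap, and the points of the agonist tables lie just above those of the isotype tables.

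Counts were summed over the NK cells of each pool, and a gene was measured if it had at least 100 counts over both. Ratios are log2 of agonist over isotype. Of 6940 genes measured, 330 (4.76%) were higher by a log2 ratio of 0.5 or more and 203 (2.93%) were lower by as much. Much of this lay outside the protein-coding genes with a sequence of their own. Among the 5261 protein-coding genes with under 10% of their 31-base words in another gene, 78 (1.48%) were higher and 104 (1.98%) were lower, and 96.5% lay within 0.5 of no difference. Among the 1679 other genes, 252 (15.0%) were higher and 99 (5.90%) were lower. Of 192 genes with an Rpl or Rps symbol, which are ribosomal protein genes and their copies, 58 were higher and 29 were lower. The median ratio was -0.01 over all genes measured and -0.02 over those with little shared sequence.

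The microRNA entry Mir682, with the lowest ratio of all genes measured, is among those with shared sequence. Its annotated hairpin lies on the plus strand at chr13:75645046-75645141 of GRCm38, inside the processed pseudogene Gm4149, and 95 of its 96 bases equal the mRNA of the ribosomal protein gene Rpl37a. The hairpin is printed to show the sequence that these entries share, and the capital marks the base that differs from Rpl37a.
Mir682: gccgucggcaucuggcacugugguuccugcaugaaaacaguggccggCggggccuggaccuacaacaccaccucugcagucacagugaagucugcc
In NK cells Mir682 had 51.3, 53.8 and 87.5 CPM in the agonist tables, against 685, 725 and 765 CPM in the isotype tables. Over the pools that is 179 counts in agonist and 2044 counts in isotype NK cells, a log2 ratio of -3.52 (-3.75 to -3.30). Gm4149, which contains the whole hairpin, ran the other way, with 4758 CPM in agonist and 2129 CPM in isotype NK cells (1.16). Rpl37a itself had 1523 and 2502 CPM (-0.72). The same pattern stood in B cells, with ratios of -3.74 for Mir682, 1.11 for Gm4149 and -0.81 for Rpl37a, and in neutrophils, with -2.11, 1.09 and -0.73. Within the hairpin, reads of Mir682 and Gm4149 cannot be told apart by sequence, so these values are counts assigned to an entry and not levels of a microRNA. The labels and headers do not say how reads that match several genes were assigned, and whether this was done alike in both treatments was not tested. The ratios of genes with shared sequence, among them Hspa8, Itgam and Klrc2 below, carry the same limit.

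The NK gene groups described next stayed close to no difference between the pools. The plot of the lists shows each measured member. The medians of 14 of the 15 lists lay between -0.15 and 0.13, and that of the type II interferon response was -0.21.

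**Figure D2:**
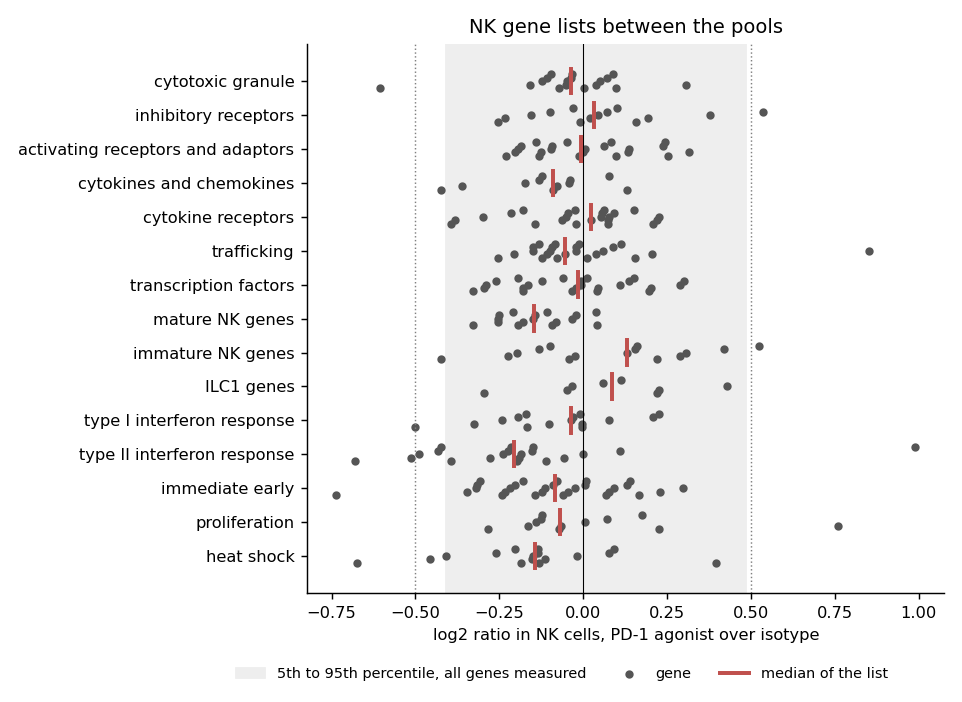
Log2 ratio of agonist over isotype in NK cells for each measured gene of 15 NK gene lists (points), the median of each list (red bar), and the 5th to 95th percentile of all 6940 genes measured (grey, -0.41 to 0.49). The dotted lines mark ratios of 0.5 either way, and the type II interferon and mature NK lists have the lowest medians.

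Receptors came first. Of 14 measured inhibitory receptor genes 1 was higher past the fold and none was lower, with a median of 0.03. That gene was Klra6, with 61 counts in agonist and 42 in isotype NK cells (0.53, -0.06 to 1.14), and its tables overlapped. Of 22 measured activating receptor and adaptor genes none passed the fold in either direction, with a median of -0.01. Klrk1, the NKG2D receptor for stress ligands, had 505, 475 and 491 CPM in the agonist tables, against 496, 492 and 497 CPM in the isotype tables. The pooled levels were 492 CPM in both, a ratio of -0.00 (-0.11 to 0.11).

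Klrc2, an activating receptor that pairs with Klrd1 (CD94) and lies on the minus strand at chr6:129647496-129660689 of GRCm38, was the clearest receptor gene on the higher side. It had 623, 575 and 650 CPM in the agonist tables, against 519, 562 and 481 CPM in the isotype tables. Every agonist table lay above every isotype table. The pools held 1831 counts in agonist and 1541 in isotype NK cells, a ratio of 0.25 (0.15 to 0.34). At 1000 counts per cell, Klrc2 was found in 50.6% of agonist NK cells (47.5% to 53.7%) and in 40.6% of isotype NK cells (37.4% to 43.9%), against 74.2% and 71.9% unthinned. The share in the B cells chosen without reading NK genes, at that depth, was 0.84% in agonist and 1.02% in isotype cells, and their median totals before thinning were 2007 and 2229 counts. Its sequence is 11.2% shared with other genes, so part of its reads could have been counted elsewhere. Its inhibitory counterpart Klrc1, of which 54.5% is shared, had a ratio of -0.16 (-0.29 to -0.03), and Klrd1, the partner of both, had -0.10 (-0.18 to -0.01).

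Ncr1 was the receptor gene with the lowest ratio, and it is one of the rule's own genes. It had 329, 323 and 356 CPM in the agonist tables, against 420, 442 and 437 CPM in the isotype tables, so that the tables did not overlap. The pools held 997 and 1272 counts, a ratio of -0.35 (-0.48 to -0.23). The adaptor Tyrobp (DAP12), through which several activating receptors signal, had a ratio of -0.13 (-0.18 to -0.08), and Hcst (DAP10) had 0.14 (0.04 to 0.24). The adhesion receptor Cd2 had -0.23 (-0.41 to -0.05). Pdcd1, the mouse gene column for PD-1, had 30 counts in agonist and 28 in isotype NK cells, too few for a ratio. How reads of the humanized receptor were counted is not stated in the labels or headers.

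The Ly49 receptors differ from cell to cell, as each NK cell expresses a random few. Receptors per cell were counted over Klra1, Klra3, Klra4, Klra7, Klra8 and Klra9 and not over the other Klra genes. At 1000 counts per cell, an agonist NK cell showed 1.54 of these genes on average (SD over cells 1.08, 1032 cells). An isotype NK cell showed 1.62 (SD over cells 1.04, 928 cells). None of them was found in 18.5% of agonist and 15.5% of isotype cells, and at least 2 in 49.1% and 54.1%. Klra8 was the Klra gene found most often, in 38.7% of agonist and 41.6% of isotype cells, followed by Klra4 in 36.3% and 36.2%, Klra9 (Ly49I) in 31.7% and 33.0%, and Klra7 (Ly49G) in 26.3% and 27.4%. Klra3 (Ly49C) was found in 14.3% and 17.6%, and Klra1 (Ly49A) in 6.4% and 5.8%. The order was the same in both pools from Klra8 to Klra1, and the intervals of Klra8 and Klra4 overlapped in each. Klra8 and Klra4 are among the rule's genes, so the choice of cells bears on their shares and on the number of receptors per cell.

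Of 4 pairs of Klra genes that the rule did not read, Klra7 and Klra9 had the largest difference in percentage points between cells with and without the second gene, in both pools. Klra7 was found in 20.8% of agonist NK cells with Klra9 (16.5% to 25.6%) and in 28.8% of those without it (25.5% to 32.3%). In isotype NK cells Klra7 was found in 19.9% of those with Klra9 (15.6% to 24.9%) and in 31.03% of those without it (27.4% to 34.8%), so the intervals overlapped narrowly in the agonist pool and lay apart in the isotype pool. For the other 3 pairs the intervals with and without the second gene overlapped in both pools. Among them Klra1 ran the other way, found in 9.59% of agonist NK cells with Klra7 and in 5.26% of those without it. In isotype NK cells these shares were 8.66% and 4.75%. Of the 31-base words of Klra7 27.7% occur in another gene, and of those of Klra9 58.8%, so reads could have been counted for a relative, and the part of this in the pair was not tested.

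**Figure D3:**
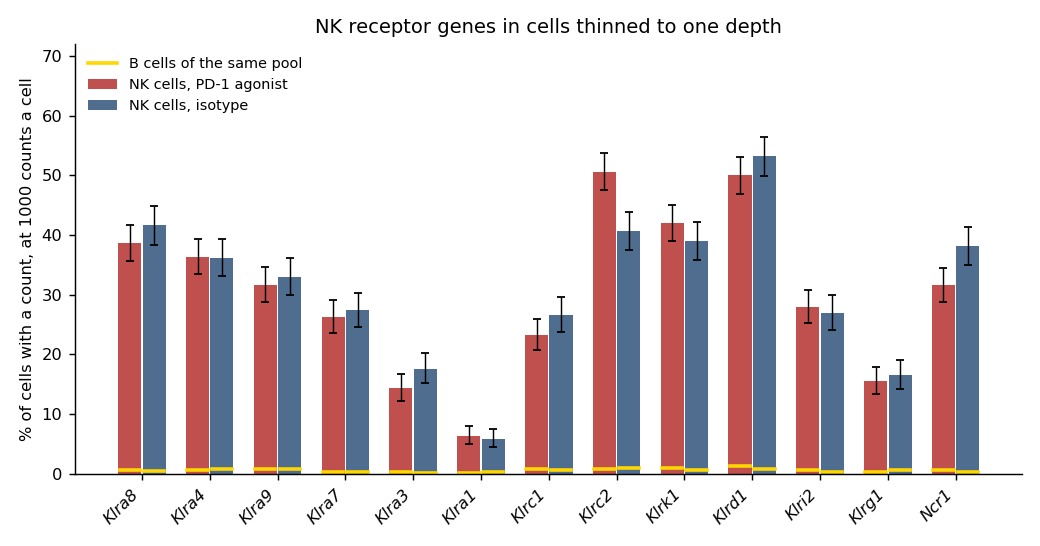
Share of NK cells with a count of each receptor gene after thinning to 1000 counts per cell, in percent, for the agonist pool (red, left) and the isotype pool (blue, right), with exact 95% intervals, and the share in B cells of the same pool, chosen without reading NK genes (yellow line). Klrc2 stands at 50.6% in agonist and 40.6% in isotype NK cells, against 0.84% and 1.02% in B cells, and Ncr1, one of the rule's genes, at 31.6% and 38.1%.

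Cytotoxic granule genes were close between the pools. Of 17 measured, none was higher past the fold and 1 was lower, with a median of -0.04. The lower one was Gzmc, with 54 counts in agonist and 82 in isotype NK cells, of which 1 cell held 29.6% and 45.1%. Gzma had 11206, 11395 and 11399 CPM in the agonist tables, against 11819, 12318 and 11952 CPM in the isotype tables. The agonist tables all lay below the isotype tables, but the ratio was only -0.07 (-0.09 to -0.05). Gzmb, granzyme B, overlapped, with 1447, 1454 and 1394 CPM in the agonist tables and 1404, 1477 and 1509 CPM in the isotype tables (-0.03, -0.10 to 0.03). Prf1 had 1345, 1295 and 1321 CPM in the agonist tables, against 1360, 1499 and 1418 CPM in the isotype tables (-0.11, -0.17 to -0.05). Nkg7, a granule membrane protein needed for degranulation, had a ratio of -0.16 (-0.21 to -0.11). Rab27a, the GTPase that docks granules at the membrane, stood on the other side at 0.31 (0.07 to 0.54), with 118, 118 and 114 CPM in the agonist tables and 88.4, 97.5 and 98.9 CPM in the isotype tables. Fasl, the death ligand, had 0.09 (-0.06 to 0.23).

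The cytokines and chemokines that NK cells release were also close. Of 11 measured, none passed the fold, 9 had ratios below 0 and the median was -0.09. Ifng, interferon gamma, overlapped between the pools, with 237, 189 and 191 CPM in the agonist tables and 197, 240 and 196 CPM in the isotype tables (-0.08, -0.25 to 0.09). It was counted in 25.7% of agonist and 28.8% of isotype NK cells. Ccl5, a chemokine stored by NK cells, had 11209, 10726 and 11755 CPM in the agonist tables, against 12301, 12820 and 12933 CPM in the isotype tables (-0.13, -0.15 to -0.11). Ccl3 had a ratio of -0.17 (-0.29 to -0.06) and Ccl4 of -0.04 (-0.10 to 0.02), and the tables overlapped for both. Xcl1, which attracts cross-presenting dendritic cells, had 616 and 824 counts (-0.42, -0.58 to -0.27). A single isotype cell held 29.1% of its counts in that pool, and without the top cell of each pool the ratio was -0.00. Tnf had 56 and 29 counts, below the minimum.

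Receptors for cytokines and the NK transcription factors did not pass the fold either. Of 23 measured cytokine receptor and signalling genes none passed in either direction, with a median of 0.02. Il2rb had a ratio of 0.07 (0.02 to 0.13), Stat4, which transmits interleukin 12 signals, had 0.21 (0.03 to 0.39), and Socs1, a feedback inhibitor, had -0.40 (-0.77 to -0.03). Of 24 transcription factor genes none passed, with a median of -0.01. Eomes had 0.03 (-0.08 to 0.14), Tbx21 had -0.18 (-0.38 to 0.03), and Id2, needed for NK development, had -0.02 (-0.09 to 0.04). Prdm1 (Blimp-1) was the lowest of them, with 105, 95.0 and 104 CPM in the agonist tables, against 115, 125 and 124 CPM in the isotype tables (-0.33, -0.56 to -0.10). Of 23 trafficking genes only Ccr7 passed the fold, and it is described with the genes named below.

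Genes of mature NK cells leaned lower in the agonist pool, by small amounts. Of 16 measured none passed the fold, but 14 had ratios below 0 and 9 of these had intervals below 0. The share of all genes measured with such intervals was not computed, so interval counts here and below only describe the lists. The median was -0.15, against -0.01 for all genes measured, of which 52.7% had ratios below 0. In T cells of the same pools the median of the list was -0.06. Itgam, the integrin chain that marks mature NK cells, had 304, 280 and 309 CPM in the agonist tables, against 360, 358 and 347 CPM in the isotype tables (-0.25, -0.38 to -0.12), but 73.9% of its 31-base words occur in another gene. Klrg1, an inhibitory receptor of terminally mature cells with no shared words, had 153, 165 and 157 CPM in the agonist tables, against 183, 207 and 188 CPM in the isotype tables (-0.25, -0.44 to -0.07). Neither gene's tables overlapped. Zeb2, a factor of terminal NK maturation, had -0.19 (-0.32 to -0.07), Lgals1 had -0.21 (-0.27 to -0.15), S100a6 had -0.14 (-0.21 to -0.08) and Klf2 had -0.18 (-0.28 to -0.08). Spn and Irf8, each at 0.04, were the 2 members above 0.

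The 15 measured genes of immature NK cells had a median of 0.13, with 8 above 0 and 7 below. Over the alternative settings that median lay between -0.06 and 0.14, on both sides of 0. Cd27 itself had overlapping tables (-0.04, -0.39 to 0.30), with 47.3, 59.1 and 41.8 CPM in the agonist tables and 46.7, 57.6 and 43.4 CPM in the isotype tables. Cd7 had 451 counts in agonist and 364 in isotype NK cells (0.31, 0.10 to 0.51), Ccr2, a chemokine receptor, had a ratio of 0.15 (0.03 to 0.28), and Tcf7, a factor of early NK cells, had 0.29 (-0.04 to 0.62). Only Socs2 passed the fold, with 62 and 43 counts (0.52, -0.06 to 1.12). The 8 measured genes of type 1 innate lymphoid cells (ILC1), the tissue relatives of NK cells, had a median of 0.09, with none past the fold.

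The sum of the neutrophil markers was lower in agonist NK cells, but the single markers differed. Of 7 measured, 1 was higher and 1 was lower past the fold, with 2 ratios above 0 and 5 below. S100a8 had 316, 272 and 166 CPM in the agonist tables, against 242, 266 and 270 CPM in the isotype tables, so its tables overlapped. The 10 neutrophil markers summed to 703 CPM in agonist and 910 CPM in isotype NK cells, and to 579 and 735 CPM without the cell of each pool that held most of them. The 10 macrophage markers summed to 747 and 1151 CPM, but that difference lay in Chil3, and the other 9 summed to 651 and 624 CPM. Of 5 macrophage markers measured 2 were higher and 1 was lower past the fold, and no marker of either list was at 0. In neutrophils the neutrophil markers summed to 102240 and 79403 CPM. B cell markers in NK cells summed to 277 and 324 CPM and T cell markers to 813 and 809 CPM, while the platelet markers stood at 18.4 and 16.4 CPM and the red cell markers at 1 and 0 counts. Leaving out the 116 agonist (10.8%) and 112 isotype (11.8%) NK cells with at least 5 counts of neutrophil, B cell, macrophage or dendritic cell markers, a step chosen after the data had been seen, left the median of the mature genes at -0.20, the ratio of Ncr1 at -0.37 and that of Klrc2 at 0.24, while the median of the immature genes turned to -0.06.

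Interferon response genes mostly had ratios below 0, by larger amounts in the type II response. The 15 measured genes of the type I response had a median of -0.04, with 12 below 0 and 3 above. Of their intervals 1 lay below 0 and 1 above. None was higher and 1 was lower past the fold, Stat2 (68 and 96 counts, -0.50, -0.97 to -0.04). The 20 measured genes of the type II response had a median of -0.21, with 18 below 0 and 8 intervals below 0, and in T cells the same list had a median of -0.11. Gbp2, a guanylate-binding protein, had 65.1, 52.5 and 65.4 CPM in the agonist tables, against 113, 90.8 and 123 CPM in the isotype tables, with no overlap (-0.68, -0.95 to -0.41). Gbp2 was also lower in agonist B cells (110 and 153 CPM, -0.48) and neutrophils (576 and 989 CPM, -0.78), at higher levels than in NK cells, while T cells had 179 and 171 CPM (0.06). Irgm1, an immunity-related GTPase, had -0.51 (-0.95 to -0.09). Cd274, which encodes the PD-1 ligand PD-L1, had 212 counts in agonist and 297 in isotype NK cells (-0.49, -0.75 to -0.23), and its tables overlapped. Psmb8, a subunit of the immunoproteasome, had -0.28 (-0.43 to -0.13), and B2m, the light chain of MHC class I, had 3428, 3382 and 3387 CPM in the agonist tables, against 3881, 3784 and 3750 CPM in the isotype tables (-0.15, -0.19 to -0.11). Without the NK cells that carried other-lineage counts, the median of the list was -0.13 and Gbp2 stood at -0.48.

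Cxcl10 went against most of its list, in which 2 of the 20 measured genes had ratios above 0. This chemokine, an interferon gamma target that attracts cells with Cxcr3, had 86.1, 57.8 and 96.2 CPM in the agonist tables, against 28.4, 44.7 and 36.7 CPM in the isotype tables. All agonist tables lay above all isotype tables. The pools held 231 and 116 counts, a ratio of 0.99 (0.66 to 1.32), and 1.07 without the cells that carried other-lineage counts. The number of cells with a count was nearly equal, 44 agonist and 43 isotype NK cells, so the pools differed in counts per positive cell. Cxcl9, its relative, was too concentrated to compare, with 60.7% of its agonist counts in 1 cell. In T cells Cxcl10 had a ratio of 0.05 (-0.15 to 0.25). B cells ran the other way, with 29.5 CPM in agonist and 66.0 CPM in isotype cells (-1.16, -1.57 to -0.75), so the isotype NK level lay below that of isotype B cells. Neutrophils had 407 and 475 CPM (-0.22). At all counts, Cxcl10 was found in 4.10% of agonist and 4.51% of isotype NK cells, against 2.14% and 3.09% of B cells chosen without reading NK genes.

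Immediate early genes, which mark acute activation, lay on both sides of no difference, and most heat shock genes lay below it. Of 28 measured immediate early genes none was higher and 1 was lower past the fold, beside 2.93% lower over all genes measured. The ratios of 10 were above 0, 4 of them with intervals above 0, and those of 18 were below 0, 9 of them with intervals below 0, with a median of -0.08. Junb had a ratio of -0.24 (-0.29 to -0.20), Dusp1, a phosphatase that ends kinase signalling, had -0.32 (-0.41 to -0.22), and Fosb had -0.74 (-1.05 to -0.43), while Fosl2 had 0.30 (0.17 to 0.42). Of 16 heat shock genes none was higher and 1 was lower, with 13 below 0 and a median of -0.14, and in T cells the median was -0.19. The lower one was Hspa8, the constitutive chaperone Hsc70, with 446, 468 and 452 CPM in the agonist tables, against 685, 741 and 684 CPM in the isotype tables. The groups of tables lay far apart (1307 and 2081 counts, -0.67, -0.78 to -0.57), but 59.7% of its 31-base words occur in other genes. Hspe1 and Hsph1, other chaperones, had ratios of -0.46 and -0.41. Of 12 proliferation genes 1 was higher, Mki67, with 78 counts in agonist and 46 in isotype NK cells (0.76, 0.21 to 1.32), and the median was -0.07. Cells with Top2a had been left out by the rule, so dividing NK cells with a count of it lie outside this set.

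**Figure D4:**
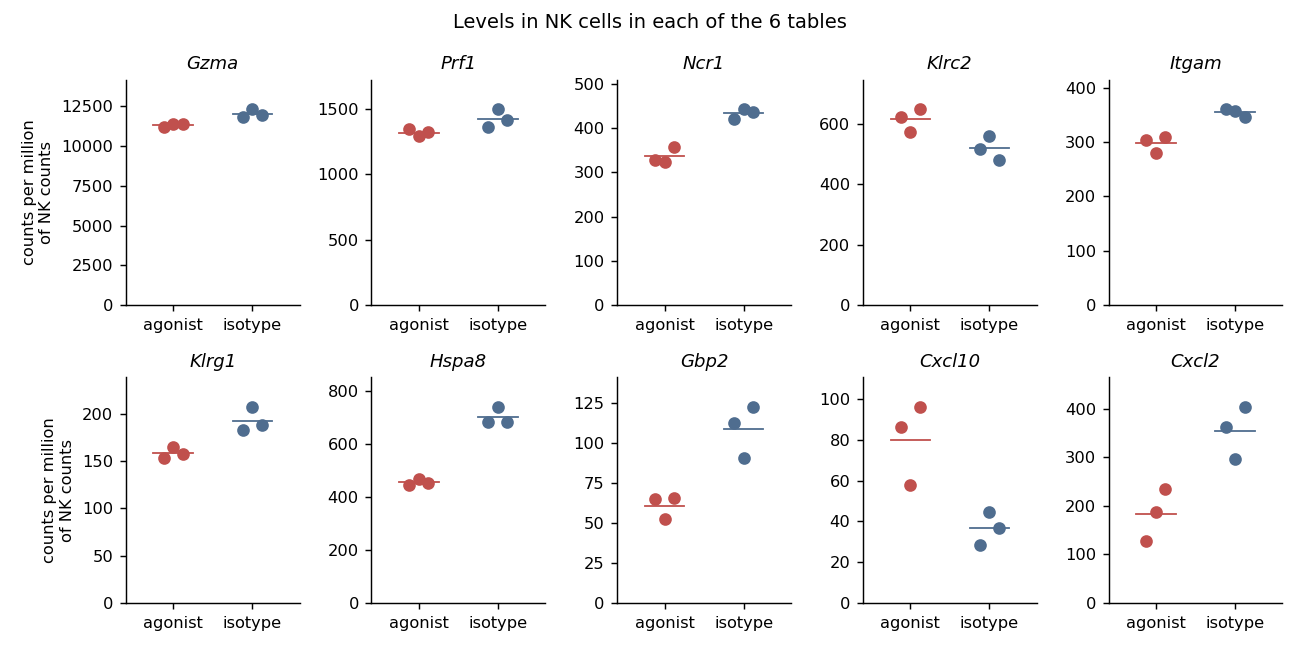
Levels of 10 genes in NK cells in each of the 6 tables, in CPM of the NK counts of that table, for agonist (red, left) and isotype (blue, right), with a line at the mean of the 3 tables. The tables of a treatment share cells. The 10 genes were picked for the plot, and the share of all genes without overlap is not given. The tables of agonist and isotype do not overlap for these 10, while those of others, such as Gzmb, Ifng and Klrk1, do. The distances differ, from a ratio of -0.07 for Gzma to 0.99 for Cxcl10.

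Most of the genes with the largest ratios beyond counting error had lower levels in NK cells than in the other cells. Among genes with little shared sequence and no dominant cell, the 12 chosen on the higher side had ratios of 0.51 to 0.99, and the 12 on the lower side had -1.18 to -0.50. In NK cells 10 of the 12 higher and 11 of the 12 lower genes had lower levels than in the other cells of both pools. The same share over all genes measured was not computed. The distance could be small, as for Tomm20, with 80.99 CPM in agonist NK cells and 81.07 CPM in the other agonist cells. On the higher side, Apoe, a lipoprotein of macrophages, had 61.8, 61.8 and 112 CPM in the agonist tables, against 36.6, 31.2 and 35.2 CPM in the isotype tables (0.97). Fn1 (fibronectin) had 166 and 95 counts (0.80), Clec4a3, a myeloid lectin, had 95 and 51 counts (0.89), and Ccr7, the lymph node homing receptor, had 172 and 95 counts (0.85). Chil3, a chitinase-like protein of alveolar macrophages, was outside this naming because 1 isotype cell held much of it. It had 283 counts in agonist and 1546 in isotype NK cells (-2.45), and -0.69 without the cells that carried other-lineage counts. Chil3 is among the macrophage markers by which those cells were left out, so the change in its ratio is tied to that choice. On the lower side, Cxcl2, a neutrophil attractant, had 127, 188 and 236 CPM in the agonist tables, against 363, 297 and 404 CPM in the isotype tables (-0.95). C3, a complement component, had 67 and 148 counts (-1.15), Ptgs2 (cyclooxygenase 2) had 87 and 171 counts (-0.98), Il1rn had 78 and 139 counts (-0.84) and Fth1 (ferritin) had 3467 and 4904 counts (-0.50).

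For part of these genes, the ratio depended on the NK cells that carried counts of other lineages. Without those cells, 5 of the 12 higher and 6 of the 12 lower genes were still past the fold, and 3 and 2 had the other sign. Ccr7 then had -0.35, Fn1 -0.87, Clec4a3 -0.35, Cxcl2 0.16 and AA467197 0.50, while Apoe was at 0.44 and Fth1 at -0.12. Apoe is among the macrophage markers by which the cells were left out, so its change is tied to that choice. Those cells had median totals of 4046.5 counts in agonist and 4540.5 in isotype NK cells, against 2239 and 2582 in the rest. Cells called as doublets, droplets with more than 1 cell, were 71 agonist (6.62%) and 57 isotype (5.98%) NK cells. Without the doublets Cxcl2 had 0.54 and Fn1 -0.40.

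Some of the genes still past the fold without those cells of mixed counts were higher in other cell types too. Higd1a, a mitochondrial protein of the hypoxia response, had 35.5, 30.5 and 40.2 CPM in the agonist tables, against 19.6, 19.0 and 22.5 CPM in the isotype tables (0.97), and it was counted in 98 agonist and 50 isotype NK cells. Tomm20, a receptor of mitochondrial protein import, had 89.4, 75.0 and 81.2 CPM in the agonist tables, against 44.8, 48.1 and 47.9 CPM in the isotype tables (0.71). Both had ratios above 0 in the other cell classes, with ratios of 0.77 and 0.66 in T cells, 1.13 and 0.42 in B cells, and 0.72 and 0.67 in neutrophils. Without the cells of mixed counts Higd1a had 0.91, Tomm20 0.62, the SNARE gene Stx6 0.85 and Ogfrl1 1.36, and on the lower side C3 had -1.03, the phospholipase gene Ddhd1 -0.77, Nrgn -0.71 and Fosb -0.63. Plac8, the named higher gene with the most counts (1536 and 1076), had 0.51, and 0.32 without those cells. Gng5, a G protein subunit, had 0.51, and 0.43 without them, with 0.44 in T cells and 0.64 in B cells. Of the 31-base words of Higd1a 9.54% occur in another gene, of those of Tomm20 7.49% and of those of Gng5 9.75%. These lie under the 10% limit, and the part of shared sequence in their ratios was not tested. In T cells 11 of the 12 higher and 3 of the 12 lower genes had the same direction, and in B cells 8 and 6. The same share over all genes measured was not computed, so these counts only describe the named genes.

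The NK cells were then split by Itgam and Cd27, the pair that orders NK maturation. At 1000 counts per cell, Itgam alone was found in 25.5% of agonist NK cells (22.9% to 28.3%) and in 30.7% of isotype NK cells (27.8% to 33.8%). Cd27 alone was found in 3.49% and 3.23%, both genes in 1.16% and 0.97%, and neither in 69.9% and 65.1%. Without thinning, Itgam alone stood at 44.0% and 52.2%. For background, Itgam was found in 3.28% of agonist and 3.05% of isotype B cells chosen without reading NK genes at that depth, and in 36.4% and 39.1% of neutrophils. A cell with neither gene may hold either below this depth, so the split describes detection.

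Within each pool, the cells with Itgam alone (472 agonist and 497 isotype, all counts used) were set against those with Cd27 alone (67 agonist and 54 isotype). Of 6347 genes with enough counts, 657 (10.4%) were higher with Itgam alone past the fold in both pools and 203 (3.20%) were lower in both. Of 15 mature genes measured, 13 were higher in both, with medians of 1.11 in the agonist and 1.26 in the isotype pool, against 0.10 and 0.12 over all genes. Of 11 immature genes measured, 8 were lower in both, with medians of -1.20 and -1.24. Itgam and Cd27, which made the split, were not counted in these lists.

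On the mature side, Cx3cr1, the fractalkine receptor of circulating NK cells, had 130 counts in cells with Itgam alone and 2 with Cd27 alone in the agonist pool, and 158 and 1 in the isotype pool. Klrg1 had ratios of 1.73 in the agonist and 1.79 in the isotype pool, Zeb2 1.46 and 1.67, Cma1, a mast cell protease gene, 2.07 and 1.98, and S1pr5, the receptor with which NK cells leave bone marrow, 1.11 and 2.61. Klf2 had 1.18 and 1.31, and Prf1 had 0.93 and 0.70. Gzmb did not follow, at 0.22 and -0.29, nor did Lgals1, at 0.41 and 0.13. Gzma was alike at 0.19 in both pools, while Ccl5 had 1.32 and 1.38. F10, a coagulation factor, had 41 and 63 counts with Itgam alone and none with Cd27 alone, and Ifitm6 had 59 and 47 counts and none.

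On the immature side, Emb had ratios of -1.72 in the agonist and -1.57 in the isotype pool, Tcf7 -1.45 and -2.25, Thy1 -1.27 and -1.52, and Xcl1 -1.45 and -3.33. Cd28, a costimulatory receptor, had -1.40 and -1.47, Ctla4, its inhibitory relative, had -1.71 and -1.68, and Myb, a factor of progenitors, had -1.17 and -1.05. Ccr2 was lower by less, at -0.59 and -0.72. Myeloid counts went with the Itgam side here, as 6 of 6 neutrophil markers and 5 of 5 macrophage markers were higher in both pools. Without the cells of mixed counts, 12 of 15 mature genes were higher in both pools (medians 1.26 and 1.38) and 7 of 10 immature genes were lower in both (-1.05 and -0.91). The summed neutrophil and macrophage markers were then 310 CPM with Itgam alone and 216 CPM with Cd27 alone in the agonist pool, and 223 and 178 CPM in the isotype pool. Cells had been left out by these same markers, which lowers the sums by construction.

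**Figure D5:**
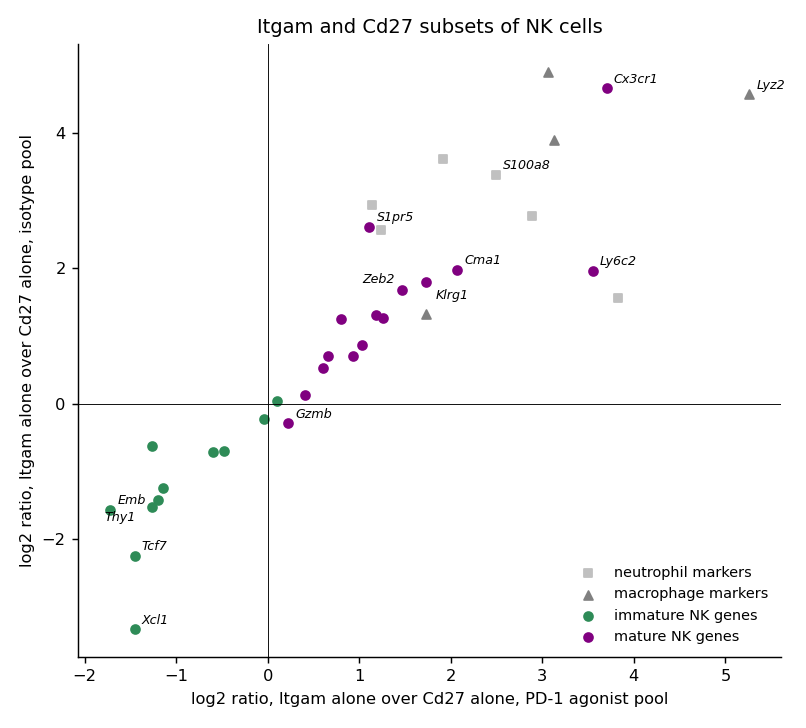
Log2 ratio of NK cells with Itgam alone over those with Cd27 alone, in the agonist pool (horizontal axis) and the isotype pool (vertical axis), for the mature and immature NK genes and for neutrophil and macrophage markers. Mature genes lie at the upper right (medians 1.11 and 1.26) and immature genes at the lower left (-1.20 and -1.24), and the myeloid markers lie on the side of Itgam.

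Cells with at least 2 of the 4 ILC1 genes Itga1, Cxcr6, Il7r and Tnfsf10 were rare. At 1000 counts per cell they were 3 of 1032 agonist NK cells (0.29%, 0.06% to 0.85%) and 0 of 928 isotype NK cells. With all counts used they were 16 agonist and 8 isotype cells, with median totals of 5104 and 6193.5 counts, far deeper than the other NK cells at 2319 and 2692. Too few were found to compare their genes between the pools. Itga1 had a ratio of 0.06 over all NK cells, and the ILC1 factor Zfp683 had 2 and 1 counts.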

How the data were processed

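Per the labels, sorted lung CD45+ cells were run on 10x Genomics Chromium after 3 samples per treatment had been mixed by cell hashing. The submitters' processing notes name Partek and mm10. Neither the labels nor the headers name an aligner or counting method. In the deposited tables, the authors' values are expected counts, unnormalized as far as the values show (1.79% of those above 0 are not whole), for 20882 genes in each cell. Per the file headers, every cell also has a total count and the percent of its reads that are mitochondrial or ribosomal.

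Each barcode was taken once per treatment, from its record with the highest total, and kept with 500 to 4000 genes and at most 15000 counts. Counts were summed over NK cells and rounded. Totals were scaled with TMM factors (0.997 agonist, 1.003 isotype), equal to those of edgeR. Ratios have Clopper-Pearson intervals and shares exact binomial ones. No test was made. For shares across depths, cells were thinned to 1000 counts, leaving out 41 agonist and 25 isotype NK cells. Doublets were called with Scrublet and were kept in the main values. Shared 31-base words come from the GENCODE annotation of GRCm38. Named genes are the 12 in each direction (10 for the Itgam and Cd27 subsets) whose interval bound nearest 0 lies farthest from 0. They have at least 100 counts, are protein-coding, share under 10% of their words, and have no cell with 25% or more of a pool's counts. Ribosomal, histone, mitochondrial, Gm and Rik genes were left out. Single genes withheld from the text stay in the counts and medians of their lists and are not reported here by value. Members and gene lists were chosen with earlier results of these data known. The counting was tested on simulated data. Software was Python 3.11.15, numpy 2.4.6, scipy 1.17.1, pandas 2.3.3, scanpy 1.11.5, matplotlib 3.10.9, and R 4.3.3 with edgeR 4.0.16 for the check of the factors.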

Additional observations from a re-analysis of the deposited data

How the results depend on the processing

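No paired analysis was possible because the tables of a treatment share cells, so each treatment is 1 pool. Leaving out any 1 table moved the share of NK cells with Cd27 alone in the isotype pool over a range of 2.47% to 4.67%, the highest without the third isotype table. With at least 3 markers required, NK cells were 7.33% of agonist and 7.64% of isotype cells, the reverse of the main order. The share with ILC1 genes in agonist NK cells was then 0%, and an agonist NK cell had 1.65 Ly49 receptors. Over all distinct barcodes the NK share was 8.00% in the agonist and 7.73% in the isotype pool. A minimum of 30 counts gave 828 genes higher and 637 lower, with 334 and 388 of little shared sequence, and a minimum of 10 gave 1586 and 1246, with 643 and 709. A fold of log2 1 gave 137 and 17, with 1 and 5. Thinned to 1500 counts, Itgam alone stood at 33.6% of agonist and 39.55% of isotype cells, Cd27 alone at 5.26% of agonist cells, and Ly49 receptors at 1.85 and 1.92 per cell. Without thinning these were 43.99% and 52.15% for Itgam alone, 6.24% and 5.67% for Cd27 alone, 1.49% and 0.84% for cells with ILC1 genes, and 2.18 and 2.36 receptors per cell. A deeper cell shows more genes by construction.

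With called doublets left out, the log2 ratios were -0.40 for Fn1, -0.044 for Clec4a3 and 0.54 for Cxcl2. Without NK cells with at least 5 counts of other lineages, chosen after seeing the data, Ccr7 had -0.35, Fn1 -0.87, Clec4a3 -0.35, Cxcl2 0.16 and AA467197 0.50, and agonist NK cells had 1.61 Ly49 receptors. The cause was not tested. Over all alternatives the median of the immature genes lay between -0.06 and 0.14, that of the mature genes between -0.20 and -0.09, and that of the type II interferon response between -0.24 and -0.13.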
